A study of Drosophila melanogaster with 22 samples.

Results

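The genes described here are 35 of the 15339 genes in the deposited tables and carry out or control mitosis and the cell cycle in Drosophila melanogaster. They are the entries whose symbol exactly equals 1 of 36 listed names. The symbol fzr was not found and was dropped. The 35 genes were followed through 22 RNA-seq libraries in 8 groups, each made from 47 to 124 cells carrying GFP that were robotically sorted after larval brains had been dissociated. Mushroom body neuroblasts with a 2 h wait, mushroom body neuroblasts with 3 washes, mushroom body neuroblasts, antennal lobe neuroblasts, type II neuroblasts and pooled neuroblasts (labelled as all neuroblasts) had 3 libraries each. Neurons and glia had 2 libraries each. Larvae were 50 h past hatching for every neuroblast group and at the wandering stage for neurons and glia. Cell type and age therefore cannot be told apart in comparisons of neuroblasts with neurons or glia. All larvae were raised at 25 °C, and a dissection used 30 brains. The labels used here do not state the strains, the drivers of GFP, or what was done during the wait and the washes.

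Neuroblasts are the stem cells of the fly brain. They divide again and again through larval life and hand off smaller daughter cells, while neurons have left the cell cycle. Progress through the cycle depends on cyclins that switch on cyclin-dependent kinases (CDKs), and the anaphase-promoting complex ends mitosis by marking cyclins and securin for destruction. Between these steps condensin compacts the chromosomes, the kinetochores attach them to the spindle under the watch of the spindle checkpoint, and the central spindle guides the final cut between the daughter cells.

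Libraries held 3150371 to 14282246 counts in genes, with 8958 to 11779 genes detected. The group labels were checked against marker genes. The summed level of 6 neuroblast markers (dpn, mira, wor, ase, grh and insc) was 1851 to 3266 CPM (gene counts scaled to library size) in neuroblast libraries, 18.3 and 5.58 CPM in neurons, and 362 and 94.0 CPM in glia libraries 1 and 2. The neuron markers summed to 13683 and 13472 CPM in neurons, 420.3 and 226 CPM in glia and 137 to 443 CPM in neuroblast libraries. The 7 glia markers (repo, Gs2, wrapper, nrv2, Eaat1, moody and Obp44a) summed to 7362 and 11753 CPM in glia and at most 614 CPM elsewhere. Obp44a made up most of that, at 4815 and 9845 CPM in glia libraries 1 and 2. In the same libraries nrv2 stood at 220 and 68.2 CPM and Eaat1 at 263 and 51.4 CPM. Neuroblast libraries had 196 to 384 CPM of nrv2 and 106 to 239 CPM of Eaat1. The other glia markers were each higher in both glia libraries than in every other library. Blood cell markers summed to 262 and 224 CPM in glia libraries 1 and 2 and to at most 76.3 CPM elsewhere. Most of the glial sum was crq, at 186 and 207 CPM. The others stood at 45.4 and 8.89 CPM (srp), 23.6 and 0.437 CPM (Hml), 5.27 and 2.62 CPM (nimC1), 0.510 and 4.52 CPM (He) and 1.02 and 0 CPM (Pxn). Hml reached 22.3 CPM in neuron library 2 and Pxn 20.3 CPM in neuron library 1. The part of these markers in the comparisons with glia was not tested. The gene ase, whose absence defines type II neuroblasts, stood at 3.01 to 5.57 CPM in type II libraries. CPM here are scaled by edgeR's TMM method over all 22 libraries. In such pools, fewer cells of a type and less RNA per cell cannot be told apart.

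Neuroblasts held most of these transcripts at high levels. Per length, in TPM, which divides by transcript length as well as by depth, the 35 genes together took 5307 to 7151 TPM in the 18 neuroblast libraries, against 322 and 402 TPM in neurons and 1206 and 819 TPM in glia. Every neuroblast library had a count for all 35 genes, while the neuron libraries had counts for 31 and 24 and the glia libraries for 34 each. In pooled neuroblasts the median member stood at percentile 91.3 of all detected genes by TPM. It stood at percentile 25.9 in neurons and 60.0 in glia. The most abundant member in pooled neuroblasts was CycB3, a B-type cyclin that acts late in mitosis, at 1278 ± 207 TPM (SD, n = 3). It was followed by CycA, a mitotic cyclin, at 787 ± 133 TPM and by stg, the Cdc25 phosphatase that activates mitotic CDK, at 458 ± 46.0 TPM. The lowest were dap, a CDK inhibitor, at 8.29 ± 5.64 TPM, cid, the centromeric histone, at 23.7 ± 14.5 TPM and Cdk4, the partner of cyclin D, at 23.8 ± 3.51 TPM.

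**Figure D1:**
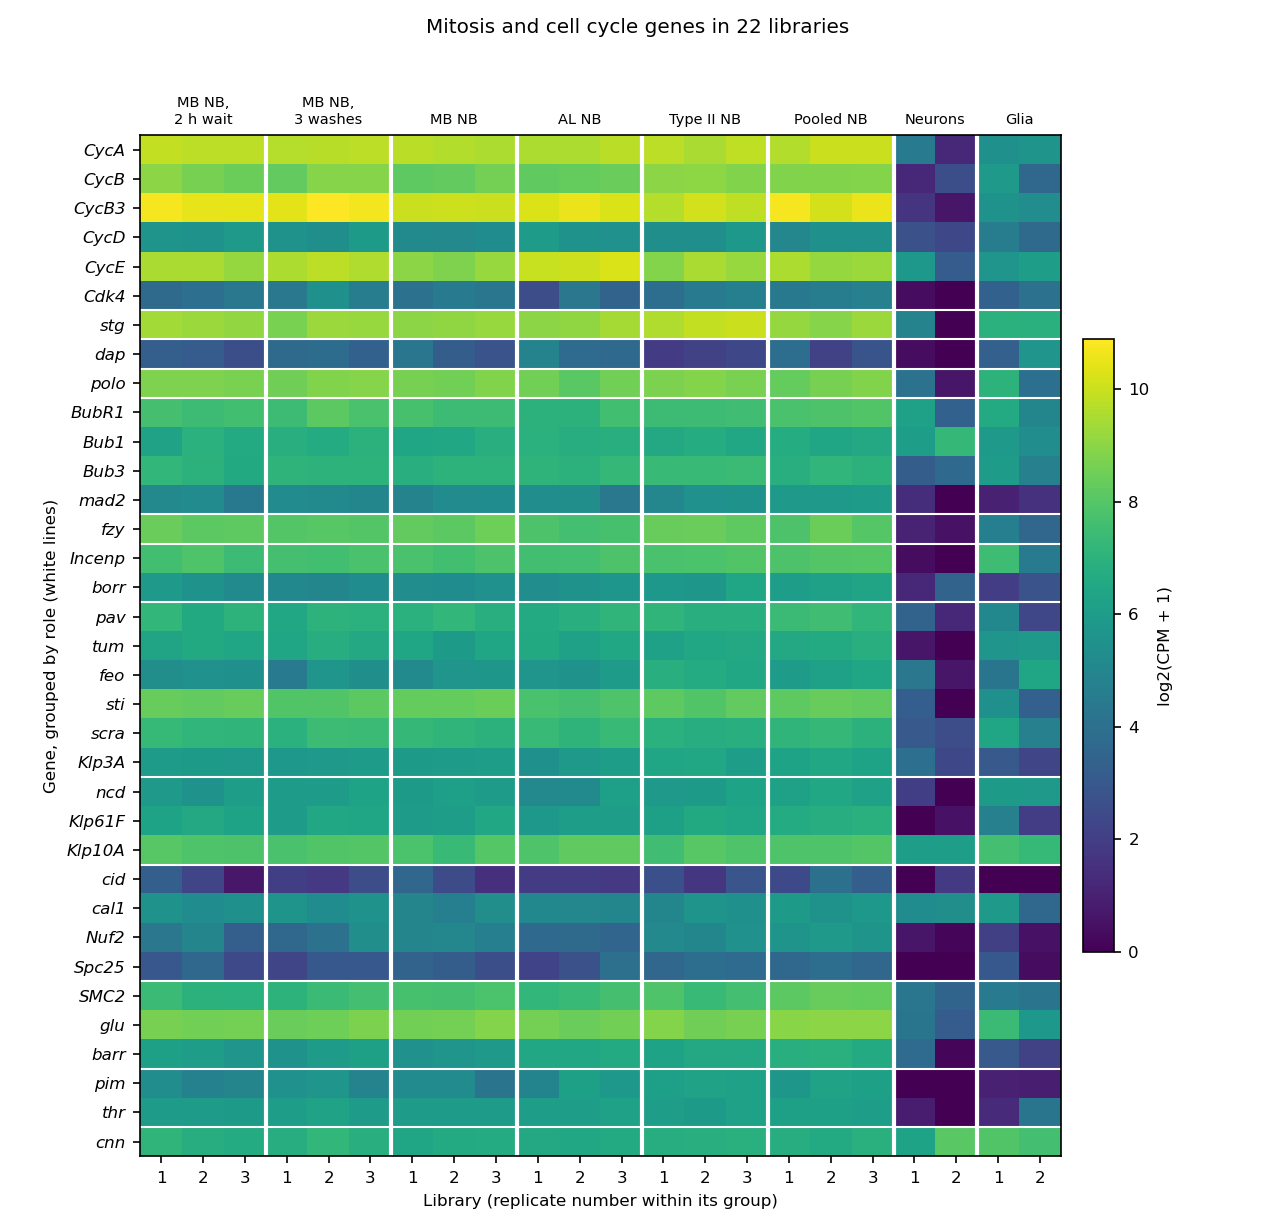
Level of each of the 35 genes as log2(CPM + 1) in each of the 22 libraries, with genes in rows grouped by role and libraries in columns grouped by cell pool (NB, neuroblasts; MB, mushroom body; AL, antennal lobe). The 18 neuroblast columns look alike, neurons are dark for most genes except Bub1, cal1, cnn and Klp10A, and glia lie between.

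Pooled neuroblasts were compared with neurons, with glia, and neurons with glia, in a single edgeR quasi-likelihood fit of 9855 genes. A gene passed when its Benjamini-Hochberg adjusted p over those 9855 genes was below 0.05. Of the 35 members, 28 were higher in pooled neuroblasts than in neurons and 0 lower, where 10.2% of all tested genes were higher and 14.5% lower. Their median log2 change was 5.31, and that of all tested genes was 0.18. Against glia, 12 members were higher in pooled neuroblasts and 0 lower, where 7.0% of all genes were higher and 13.6% lower, and the median log2 change of the members was 2.41. In neurons 0 members were higher than in glia and 14 were lower, where 9.37% of all genes were higher and 10.8% lower, and the median log2 change was -2.47. At an unadjusted p below 0.05, 31, 18 and 18 members differed in these 3 comparisons. Of all 9855 genes, 3804, 3599 and 3611 did. The comparisons share libraries and are not independent of each other. Without neuron library 2 the 14 lower members in neurons over glia became 9, and without pooled neuroblast library 1 or 2 also 9. Leaving out any pooled neuroblast library brought the 12 higher members over glia to 7. In a single fit of all 22 libraries, 27 members were higher and 2 lower in pooled neuroblasts than in glia, where 19.1% and 23.0% of all genes were. In that fit 2 members were higher and 24 lower in neurons than in glia, where 17.2% and 23.9% of all genes were. With limma on TPM 19 members were higher over glia, where 13.8% of all genes were. Scaled to the ERCC spike-in RNA per cell, the median log2 change of all genes moved to 1.94, 3.45 and 1.52 in the 3 comparisons, and 33, 34 and 4 members were then higher and 0, 0 and 7 lower. Of all genes, 33.5%, 57.3% and 28.3% were then higher and 8.4%, 2.53% and 4.72% lower.

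**Figure D2:**
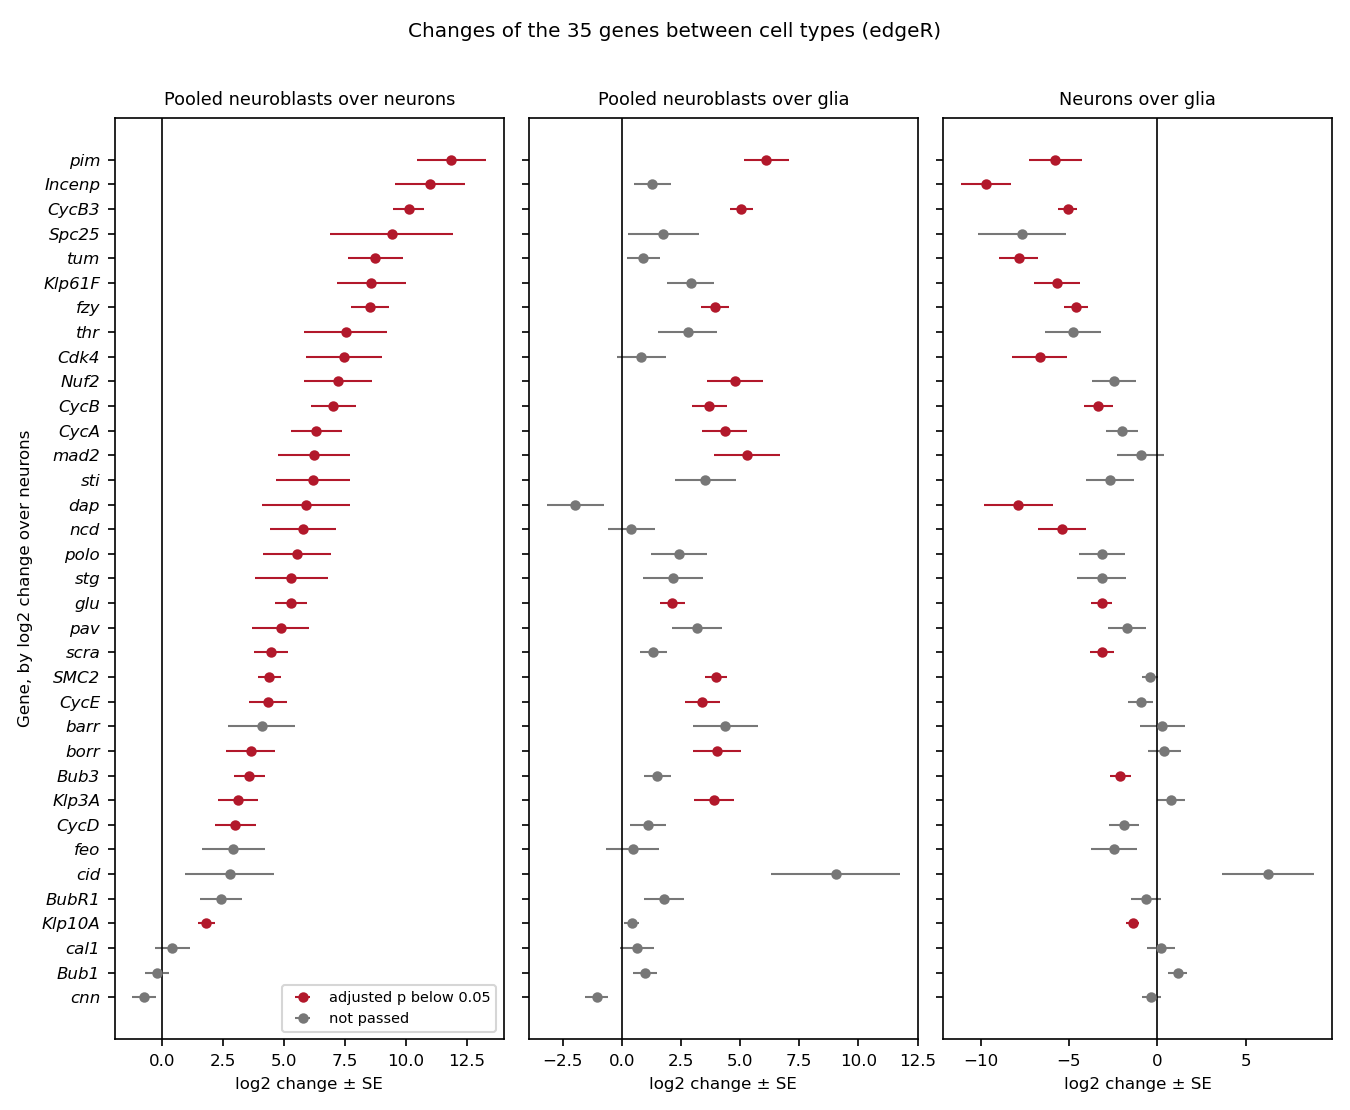
Fitted log2 change and its standard error (SE) for each of the 35 genes in pooled neuroblasts over neurons, pooled neuroblasts over glia and neurons over glia, with genes that passed the test in red. Most genes lie right of 0 in the first and second panels and left of 0 in the third, with cnn, Bub1 and cal1 close to 0 in the first panel, and changes of genes with 3 or fewer counts in a group depend on the fit's prior count.

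All 6 cyclins and CDKs were higher in pooled neuroblasts than in neurons. CycB3 (chromosome 3R, 20694075 to 20696617, minus strand, dm3) had 1701, 1148 and 1515 CPM in pooled neuroblasts, 2.22 and 0.588 CPM in neurons and 47.4 and 38.9 CPM in glia. The 3 cell types did not overlap, with glia between the others. It was higher in pooled neuroblasts than in neurons (log2 change 10.11 ± 0.63, adjusted p = 2.60e-05) and than in glia (log2 change 5.04 ± 0.48, adjusted p = 0.000257), and lower in neurons than in glia (log2 change -5.06 ± 0.54, adjusted p = 0.000536). CycA had 791, 1022 and 1020.5 CPM in pooled neuroblasts, 22.2 and 1.32 CPM in neurons and 42.5 and 48.4 CPM in glia. Its changes were 6.32 ± 1.05 over neurons (adjusted p = 0.00296) and 4.34 ± 0.94 over glia (adjusted p = 0.0142), in log2 units. CycB, the B-type cyclin of mitotic entry, had 449.8, 445 and 464 CPM in pooled neuroblasts, 1.39 and 5.14 CPM in neurons and 57.6 and 11.4 CPM in glia. The glia libraries differed 5-fold from each other, yet both stood above both neuron libraries.

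CycE, the cyclin that drives entry into DNA replication, had 752, 565 and 606 CPM in pooled neuroblasts, 54.2 and 8.08 CPM in neurons and 50.3 and 67.9 CPM in glia. Neuron library 1 reached the glial level and neuron library 2 did not. CycE was higher in pooled neuroblasts than in neurons (log2 change 4.34 ± 0.77) and glia (3.40 ± 0.73), and neurons over glia did not pass (log2 change -0.94 ± 0.70, adjusted p = 0.366). The G1 pair of CycD and Cdk4 behaved otherwise. CycD had 31.9, 43.6 and 42.7 CPM in pooled neuroblasts, 5.56 and 4.11 CPM in neurons and 23.6 and 12.5 CPM in glia, and Cdk4 had 19.8, 23.6 and 25.4, then 0.278 and 0, then 9.52 and 15.9 CPM in the same groups. Both were higher in pooled neuroblasts than in neurons, and neither passed against glia (log2 changes 1.10 ± 0.76 and 0.81 ± 1.03, adjusted p = 0.323 and 0.598). Cdk4 had 1 count in both neuron libraries together and 165 in glia, which made neurons 135-fold (95% interval 23.8 to 5349.9) lower than glia by counts.

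The activator stg (chromosome 3R, 25077540 to 25081502, minus strand, dm3) had 577, 478 and 603 CPM in pooled neuroblasts, 27.8 and 0 CPM in neurons and 122 and 119 CPM in glia. It was higher in pooled neuroblasts than in neurons (log2 change 5.31 ± 1.50, adjusted p = 0.0316), while its change over glia did not pass (log2 change 2.16 ± 1.25, adjusted p = 0.242). The mitotic kinase polo had 317, 403 and 451 CPM in pooled neuroblasts, 16.4 and 0.588 CPM in neurons and 131 and 14.6 CPM in glia, and it passed against neurons (log2 change 5.53 ± 1.40, adjusted p = 0.0211) but not against glia (adjusted p = 0.170). The inhibitor dap, the fly relative of p21 and p27, ran the other way between neuroblasts and glia in its values. It had 14.1, 3.30 and 6.18 CPM in pooled neuroblasts, 0.278 and 0 CPM in neurons and 9.18 and 50.1 CPM in glia. Glia library 2 was the highest of all 22 libraries for dap, and glia library 1 lay within the pooled neuroblast range. Pooled neuroblasts were 80.5-fold (95% interval 14.3 to 3196) higher than neurons by counts (adjusted p = 0.0434). Neurons were lower than glia in dap (adjusted p = 0.0241), by counts 325-fold (95% interval 58.0 to 12860.0) lower. Pooled neuroblasts over glia did not pass (log2 change -1.97 ± 1.22, adjusted p = 0.271). This direction of dap is relative to the other genes. Under spike-in scaling 34 members were higher in pooled neuroblasts than in glia and 0 lower, where 57.3% and 2.53% of all genes were.

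The spindle checkpoint genes split. The kinetochore sensors mad2 and Bub3 were higher in pooled neuroblasts than in neurons, at 6.23 ± 1.49 and 3.58 ± 0.63 in log2 units (adjusted p = 0.0166 and 0.00360). Bub3 had 113, 141 and 127 CPM in pooled neuroblasts, 8.34 and 12.3 CPM in neurons and 62.4 and 25.9 CPM in glia. The gene mad2 had 56.9, 56.5 and 64.2 CPM in pooled neuroblasts, 1.67 and 0 CPM in neurons and 1.02 and 1.89 CPM in glia, so that it was low in both other cell types, and it passed against glia too (log2 change 5.28 ± 1.39, adjusted p = 0.0298). The checkpoint kinases BubR1 and Bub1 did not pass in any of the 3 comparisons. BubR1 had 213, 229 and 246 CPM in pooled neuroblasts, 74.8 and 9.26 CPM in neurons and 101 and 30.6 CPM in glia, with an adjusted p of 0.0734 over neurons. Bub1 had 106, 83.8 and 94.2 CPM in pooled neuroblasts, 64.8 and 149 CPM in neurons and 55.9 and 39.2 CPM in glia. Neuron library 2 held the highest Bub1 value of all 22 libraries. The log2 changes of Bub1 were -0.20 ± 0.49 over neurons, 0.96 ± 0.51 over glia and 1.16 ± 0.55 in neurons over glia (adjusted p = 0.801, 0.202 and 0.160). Without neuron library 1, Bub1 was the 1 member that was higher in neurons than in glia. The activator of the anaphase-promoting complex fzy (chromosome 2L, 16310929 to 16313097, plus strand, dm3) separated all 3 cell types, with 229, 345 and 255 CPM in pooled neuroblasts, 1.11 and 0.441 CPM in neurons and 24.6 and 11.1 CPM in glia. It passed in pooled neuroblasts over neurons (log2 change 8.53 ± 0.77, adjusted p = 0.000113), over glia (log2 change 3.93 ± 0.58, adjusted p = 0.00233) and in neurons over glia (log2 change -4.60 ± 0.69, adjusted p = 0.00281).

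The other activator of that complex, fzr, was looked up by its identifier FBgn0262699, which the tables carry under the symbol rap, so that it is not among the 35. It acts after mitosis and in cells that leave the cycle. rap had 66.6, 51.3 and 59.6 CPM in pooled neuroblasts, 75.0 and 71.4 CPM in neurons and 797 and 620.1 CPM in glia. Both glia libraries were far above the others in CPM, a level relative to the other genes. The log2 change of pooled neuroblasts over glia was -3.61 ± 0.30 (adjusted p = 9.65e-05) and that of neurons over glia -3.28 ± 0.35 (adjusted p = 0.000442), while pooled neuroblasts over neurons did not pass (adjusted p = 0.425). The rap change of pooled neuroblasts over glia no longer passed in 1 of 15 alternative settings, and that of neurons over glia passed in all. Under spike-in scaling the median log2 change of all genes in pooled neuroblasts over glia was 3.45.

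In the chromosomal passenger complex, which corrects wrong attachments, the scaffold Incenp was nearly absent from neurons. It had 228, 252 and 259 CPM in pooled neuroblasts, 0.278 and 0 CPM in neurons and 179 and 20.8 CPM in glia. The neuron libraries together held 1 count against 6331 in pooled neuroblasts, a ratio of 2562-fold (95% interval 459.6 to 101190.0), and the test passed (adjusted p = 0.000801). Neurons were also lower than glia, 978-fold (95% interval 175 to 38644) by counts (adjusted p = 0.00242). Such intervals and floors cover counting error, and leave out the spread between libraries and any effect of the RNA amplification. Pooled neuroblasts over glia did not pass for Incenp (log2 change 1.28 ± 0.79, adjusted p = 0.271). Glia library 1 came close to the neuroblasts and library 2 did not. The partner borr had 65.4, 73.5 and 81.1 CPM in pooled neuroblasts, 1.39 and 10.1 CPM in neurons and 2.89 and 5.83 CPM in glia. It passed over neurons (log2 change 3.63 ± 0.99, adjusted p = 0.0282) and over glia (4.02 ± 1.01, adjusted p = 0.0256).

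Of 6 genes of the central spindle and cytokinesis, 5 were higher in pooled neuroblasts than in neurons and 1 than in glia. The centralspindlin gene tum had 93.3, 101 and 113 CPM in pooled neuroblasts, 0.556 and 0 CPM in neurons and 50.1 and 57.1 CPM in glia. By counts it was 531-fold (95% interval 147 to 4387) higher in pooled neuroblasts than in neurons (adjusted p = 0.000731) and 280.3-fold (95% interval 77.3 to 2319) lower in neurons than in glia (adjusted p = 0.00204). Its kinesin partner pav had 168, 186 and 141 CPM in pooled neuroblasts, 10.0 and 1.32 CPM in neurons and 32.5 and 3.93 CPM in glia, and passed over neurons only (log2 change 4.86 ± 1.17, adjusted p = 0.0173). The kinesin Klp3A passed over both neurons (log2 change 3.12 ± 0.82, adjusted p = 0.0237) and glia (log2 change 3.88 ± 0.85, adjusted p = 0.0147). The citron kinase sti (6.19 ± 1.52) and the anillin scra (4.48 ± 0.70) passed over neurons, and over glia their log2 changes were 3.53 ± 1.30 and 1.33 ± 0.59 (adjusted p = 0.0850 and 0.137). The microtubule bundler feo (PRC1) had 63.5, 73.3 and 85.1 CPM in pooled neuroblasts, 18.6 and 0.588 CPM in neurons and 17.8 and 86.5 CPM in glia. Glia library 2 was above every pooled neuroblast library for feo and library 1 was below, and none of its 3 comparisons passed.

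The 3 spindle motors were all higher in pooled neuroblasts than in neurons and all lower in neurons than in glia, and 0 of them passed between pooled neuroblasts and glia. The bipolar kinesin Klp61F had 102, 109 and 118 CPM in pooled neuroblasts, 0 and 0.441 CPM in neurons and 26.0 and 2.91 CPM in glia. By counts it was 380.5-fold (95% interval 130.1 to 1846) higher in pooled neuroblasts than in neurons (adjusted p = 0.00275), and 47.1-fold (95% interval 15.8 to 230.4) lower in neurons than in glia (adjusted p = 0.0186). The minus-end motor ncd had 74.4, 87.4 and 75.0 CPM in pooled neuroblasts, 3.06 and 0 CPM in neurons and 60.2 and 57.4 CPM in glia. Its glial values were close together and near those of the neuroblasts, with a log2 change of 0.39 ± 1.00 (adjusted p = 0.806), and neurons were lower than glia (log2 change -5.38 ± 1.36, adjusted p = 0.0257). The microtubule-depolymerising kinesin Klp10A had 236, 234 and 253 CPM in pooled neuroblasts, 67.5 and 67.4 CPM in neurons and 199.8 and 155 CPM in glia. The neuron libraries were nearly equal and below all others. Its changes were 1.81 ± 0.34 over neurons (adjusted p = 0.00523) and -1.40 ± 0.36 in neurons over glia (adjusted p = 0.0259), and the second of these was 0.40 under spike-in scaling.

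At the centromere and kinetochore, the outer kinetochore genes Nuf2 and Spc25 were higher in pooled neuroblasts than in neurons and the centromere genes cid and cal1 did not pass. Nuf2 had 48.0, 56.8 and 48.1 CPM in pooled neuroblasts, 0.556 and 0.147 CPM in neurons and 3.23 and 0.437 CPM in glia, and by counts it was 177-fold (95% interval 60.6 to 861) higher in pooled neuroblasts than in neurons (adjusted p = 0.00584). It passed over glia as well (log2 change 4.78 ± 1.17, adjusted p = 0.0232). Spc25 had 11.3, 14.3 and 11.1 CPM in pooled neuroblasts, no count in neurons, and 6.97 and 0.291 CPM in glia. Against a floor of 3 counts over the group it was at least 42.8-fold higher in pooled neuroblasts than in neurons (adjusted p = 0.0305). The histone cid had 4.30, 15.3 and 8.85 CPM in pooled neuroblasts, 0 and 2.64 CPM in neurons and no count in glia, and was at least 41.0-fold higher in pooled neuroblasts than in glia without passing (adjusted p = 0.0519). The loading factor of cid, cal1, had 60.9, 46.6 and 54.0 CPM in pooled neuroblasts, 38.6 and 40.1 CPM in neurons and 56.8 and 11.9 CPM in glia. The neuron libraries lay close together and below the pooled neuroblasts, and the change did not pass (log2 change 0.42 ± 0.72, adjusted p = 0.698).

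Condensin was abundant in neuroblasts. SMC2 had 278, 322 and 321 CPM in pooled neuroblasts, 18.3 and 10.3 CPM in neurons and 20.9 and 17.2 CPM in glia. Neurons and glia overlapped, and pooled neuroblasts passed over neurons (log2 change 4.40 ± 0.48, adjusted p = 0.000289) and over glia (log2 change 3.98 ± 0.47, adjusted p = 0.000710). Its partner glu (SMC4) had 487, 503 and 513 CPM in pooled neuroblasts, 17.5 and 7.93 CPM in neurons and 171 and 54.6 CPM in glia, and passed in all 3 comparisons (log2 changes 5.28 ± 0.64, 2.13 ± 0.54 and -3.15 ± 0.60). The non-SMC subunit barr had 112, 118 and 101 CPM in pooled neuroblasts, 12.8 and 0.147 CPM in neurons and 7.14 and 3.35 CPM in glia. Pooled neuroblasts overlapped neither other cell type, yet the changes of 4.08 ± 1.36 over neurons and 4.37 ± 1.38 over glia missed the threshold (adjusted p = 0.0583 and 0.0543).

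The securin pim (chromosome 2L, 10362989 to 10364046, plus strand, dm3), which holds separase in check until anaphase, had 52.6, 77.2 and 72.3 CPM in pooled neuroblasts, no count in neurons and 1.02 and 0.874 CPM in glia. It was at least 235-fold higher in pooled neuroblasts than in neurons (adjusted p = 0.000760) and passed over glia (log2 change 6.10 ± 0.95, adjusted p = 0.00421). Neurons were at least 3.26-fold lower than glia (adjusted p = 0.0319), from 12 glial counts. The gene thr, whose product is a partner of separase, had 71.3, 71.2 and 65.8 CPM in pooled neuroblasts, 0.834 and 0 CPM in neurons and 1.53 and 17.9 CPM in glia. It was 241-fold (95% interval 82.3 to 1169.8) higher by counts in pooled neuroblasts than in neurons (adjusted p = 0.0129), and did not pass over glia (adjusted p = 0.147), where library 2 held most of the counts.

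The centrosome scaffold gene cnn went against the majority in its values relative to the other genes. It had 108, 98.3 and 118 CPM in pooled neuroblasts, 79.2 and 273 CPM in neurons and 246 and 195 CPM in glia. Both glia libraries and neuron library 2 were above every pooled neuroblast library, and neuron library 1 was below. The changes of pooled neuroblasts over neurons (log2 change -0.72 ± 0.49, adjusted p = 0.309) and over glia (log2 change -1.06 ± 0.49, adjusted p = 0.151) did not pass. Under spike-in scaling 34 of the 35 members were higher in pooled neuroblasts than in glia and 0 lower, where 57.3% and 2.53% of all genes were. Leaving out neuron library 1 gave 1 member lower in pooled neuroblasts over neurons, and leaving out either neuron library gave 1 member lower over glia. In each case that member was cnn. The genes cnn, Bub1, BubR1, cid, cal1, barr and feo were the 7 members that passed in none of the 3 comparisons. The same count was not made over all genes.

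**Figure D3:**
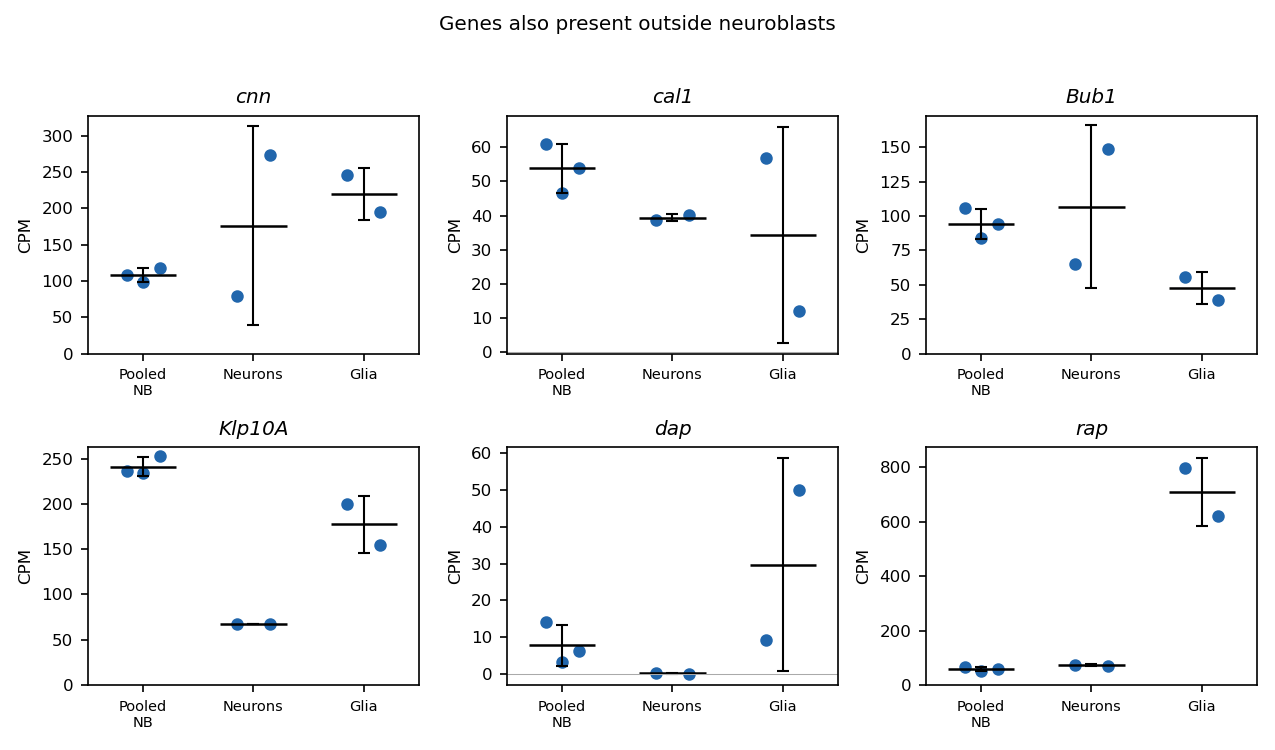
CPM in each library of pooled neuroblasts, neurons and glia for cnn, cal1, Bub1, Klp10A, dap and rap, with the mean (line) and SD (bars; n = 3, 2 and 2). Neuron library 2 and both glia libraries exceed the neuroblasts in cnn, both glia libraries stand far above the rest in rap, and the glia libraries differ widely in dap and cal1.

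The glia libraries differed from each other over all genes, with a correlation of log2 levels of 0.8406. Within the neuroblast groups it was 0.9529 to 0.9765. Of the 35 members, 25 were higher in glia library 1 and 9 in glia library 2, of which 15 and 4 by 2-fold or more. The same counts were not taken over all genes, so whether the members differ more than other genes was not tested. Incenp stood at 179 and 20.8 CPM in libraries 1 and 2, polo at 131 and 14.6 CPM, and CycB at 57.6 and 11.4 CPM. In the other direction, feo stood at 17.8 and 86.5 CPM and thr at 1.53 and 17.9 CPM. The neuroblast marker sum ran with the first set, at 362 and 94.0 CPM, with all 6 markers counted in both libraries. Most of that difference was in dpn at 145 and 8.45 CPM and mira at 161 and 9.91 CPM, while ase stood at 5.78 and 5.24 CPM and insc was higher in library 2. The part of these markers in the glial levels was not tested. Without glia library 1, 13 members were higher in pooled neuroblasts than in glia, and without glia library 2, 8 were. Without glia library 1, 13 members were lower in neurons than in glia, and without glia library 2, 14 were.

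**Figure D4:**
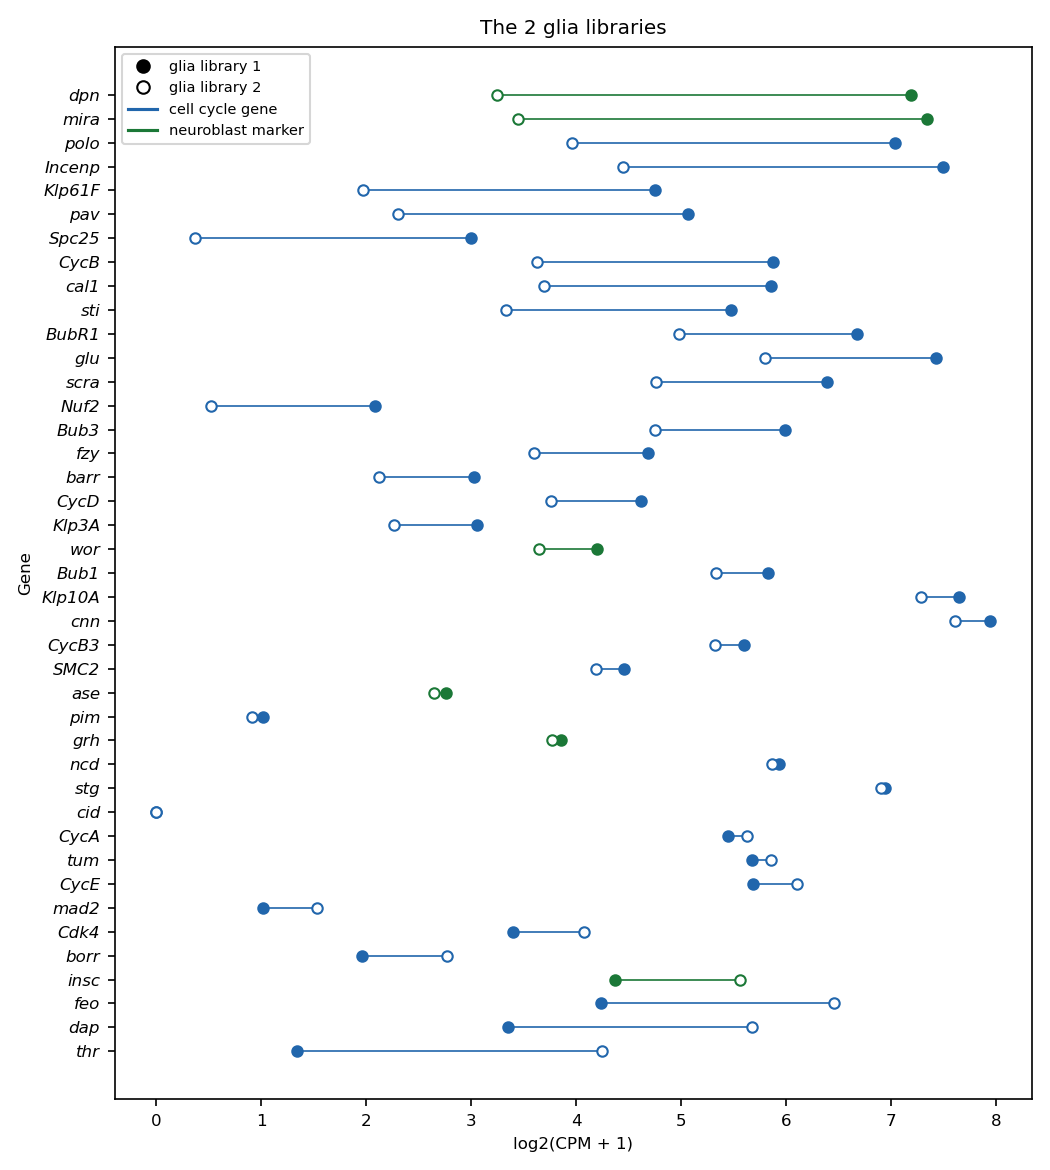
Level as log2(CPM + 1) of the 35 genes and of 6 neuroblast markers in glia library 1 (filled) and glia library 2 (open), ordered by their difference. The markers dpn and mira and the mitotic genes polo and Incenp are at the top, higher in library 1, and feo, dap and thr at the bottom are higher in library 2.

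Neuron libraries also differed, with a correlation of 0.8717 over all genes and with 25 members higher in library 1 and 8 in library 2. The median coefficient of variation of the members was 10.7% in pooled neuroblasts, 108% in neurons and 52.4% in glia. Neither these counts nor these coefficients were computed over all genes. In neurons 10 and 15 members had 3 counts or fewer in libraries 1 and 2.

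The neuroblast groups were then compared by lineage. Type II neuroblasts make intermediate progenitors that divide further, while mushroom body and antennal lobe neuroblasts divide directly into short-lived precursors, as type I lineages. Over mushroom body, antennal lobe, type II and pooled neuroblasts, the highest group mean was under 2-fold above the lowest for 27 of 35 members, with a median of 1.55-fold. The same values were not computed over all genes. The largest ranges were 5.21-fold for dap, 4.32-fold for Nuf2 and 3.61-fold for cid. Tests were made in an edgeR fit of the 4 groups and 9249 genes. Of the 35 members, 3 were higher and 2 lower in mushroom body than in antennal lobe neuroblasts, where 5.88% and 5.96% of all genes were. In mushroom body over type II neuroblasts 0 were higher and 5 lower, where 5.63% and 4.72% of all genes were. In antennal lobe over type II neuroblasts 3 were higher and 5 lower, where 6.08% and 5.34% of all genes were. The median log2 changes of the members were 0.04, -0.10 and -0.29, beside 0.03, 0.03 and 0.00 for all genes. These 3 comparisons share libraries, and 11 members passed in any of them. How many of all genes passed in any of them was not counted. In a single fit of all 22 libraries 0 members passed in these 3 comparisons, where 0.721% to 1.76% of all genes passed in each direction. Without antennal lobe library 3, 5 members were higher in mushroom body than in antennal lobe neuroblasts, and without pooled library 2, 1 was higher in mushroom body than in type II neuroblasts.

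Spike-in scaling moved these comparisons as a whole. Scaled to the ERCC spike-in RNA per cell, the median of all genes moved to -1.44 in mushroom body over type II and to -1.06 in antennal lobe over type II neuroblasts, and 33 and 25 members were then lower, where 55.7% and 34.4% of all genes were. For mushroom body over antennal lobe neuroblasts it moved to -0.36, with 0 members higher and 1 lower, where 0.757% and 2.29% of all genes were. The distance of the members' median from that of all genes was -0.11 in mushroom body over type II, -0.27 in antennal lobe over type II and 0.00 in mushroom body over antennal lobe neuroblasts. Under TMM scaling it was -0.12, -0.29 and 0.01. Type II library 1 held 0.120% spike-in counts, against 0.345% and 0.394% in type II libraries 2 and 3. The part of that library in the shifts of type II comparisons was not tested. The changes below are those relative to the other genes.

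CycE (chromosome 2L, 15727784 to 15731780, minus strand, dm3) was highest in antennal lobe neuroblasts. It had 501, 432 and 597 CPM in mushroom body, 1008, 1073 and 1218 CPM in antennal lobe, 471, 730.3 and 585 CPM in type II and 752, 565 and 606 CPM in pooled neuroblasts. No library of another group reached the antennal lobe libraries. It was lower in mushroom body than in antennal lobe neuroblasts (log2 change -1.09 ± 0.16, adjusted p = 2.68e-05) and higher in antennal lobe than in type II neuroblasts (log2 change 0.88 ± 0.15, adjusted p = 0.000414), and the second change was -0.09 under spike-in scaling. The CDK inhibitor dap, which restrains cyclin E and its kinase, had 18.1, 8.25 and 5.95 CPM in mushroom body, 28.3, 13.0 and 12.3 CPM in antennal lobe and 2.78, 3.40 and 4.09 CPM in type II neuroblasts. Type II libraries were the lowest of these 3 lineages, and dap was higher in antennal lobe than in type II neuroblasts (log2 change 2.38 ± 0.58, adjusted p = 0.00898). Pooled neuroblasts had 14.1, 3.30 and 6.18 CPM of dap, with library 2 inside the type II range. Mushroom body over type II neuroblasts did not pass for dap (log2 change 1.66 ± 0.59, adjusted p = 0.0721).

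Type II neuroblasts were higher than both other lineages in stg, feo and CycB. The activator stg had 503, 537 and 582 CPM in mushroom body, 513, 539 and 674 CPM in antennal lobe and 757, 939 and 1034 CPM in type II neuroblasts. All type II libraries were above all others of the lineages, and stg was lower in mushroom body (log2 change -0.73 ± 0.14, adjusted p = 0.000870) and antennal lobe neuroblasts (log2 change -0.66 ± 0.14, adjusted p = 0.00245) than in type II neuroblasts. The midzone gene feo (chromosome X, 10746479 to 10748902, minus strand, dm3) had 36.1, 50.0 and 53.6 CPM in mushroom body, 50.7, 45.5 and 64.6 CPM in antennal lobe and 116, 103 and 91.7 CPM in type II neuroblasts, and its log2 changes were -1.14 ± 0.21 and -0.95 ± 0.21 (adjusted p = 0.000631 and 0.00307). CycB had 289.6, 304 and 392 CPM in mushroom body, 301, 316 and 334 CPM in antennal lobe and 504, 524 and 445 CPM in type II neuroblasts, with changes of -0.56 ± 0.13 and -0.63 ± 0.13 (adjusted p = 0.00650 and 0.00229). The type II libraries overlapped pooled neuroblasts in CycB, at 449.8, 445 and 464 CPM, and handled mushroom body neuroblasts, at 506, 401 and 351 CPM after the wait and 306, 478 and 479.9 CPM after 3 washes. For CycB3 the order was another, at 1036, 1059 and 1042 CPM in mushroom body, 1286, 1493 and 1247 CPM in antennal lobe and 811, 1129.7 and 906 CPM in type II neuroblasts. Of the 3 comparisons between lineages, antennal lobe over type II passed for CycB3 (log2 change 0.50 ± 0.14, adjusted p = 0.0200), and that change was -0.52 under spike-in scaling.

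Nuf2 (chromosome 2L, 7064431 to 7065837, minus strand, dm3) was lower in antennal lobe neuroblasts than in the 3 groups it was tested against. It had 29.6, 32.1 and 24.7 CPM in mushroom body, 12.3, 12.4 and 10.7 CPM in antennal lobe, 33.9, 31.0 and 44.1 CPM in type II and 48.0, 56.8 and 48.1 CPM in pooled neuroblasts. The antennal lobe libraries lay close together and below every other library of these 4 groups. The handled mushroom body libraries overlapped them, at 19.1, 29.6 and 8.92 CPM after the wait and 11.96, 16.2 and 40.8 CPM after 3 washes. Nuf2 was higher in mushroom body than in antennal lobe neuroblasts (log2 change 1.30 ± 0.27, adjusted p = 0.00181) and lower in antennal lobe than in type II neuroblasts (log2 change -1.62 ± 0.27, adjusted p = 0.000210). Spc25, a subunit of the same NDC80 complex, did not pass, with 7.72 ± 2.47 CPM in mushroom body, 8.02 ± 6.17 CPM in antennal lobe and 12.8 ± 1.77 CPM in type II neuroblasts (SD, n = 3 each).

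Mushroom body neuroblasts had the lowest means of barr and pim. The condensin gene barr (chromosome 2L, 20058163 to 20060975, minus strand, dm3) had 44.6, 49.7 and 58.8 CPM in mushroom body, 88.9, 91.9 and 99.6 CPM in antennal lobe and 78.1, 92.8 and 92.8 CPM in type II neuroblasts. Its other subunits SMC2 and glu did not pass between lineages, and barr was lower in mushroom body than in antennal lobe (log2 change -0.85 ± 0.18, adjusted p = 0.00192) and type II neuroblasts (log2 change -0.77 ± 0.18, adjusted p = 0.00623). The securin pim had 36.7, 37.5 and 17.2 CPM in mushroom body, 28.9, 72.4 and 55.3 CPM in antennal lobe and 70.1, 75.2 and 73.2 CPM in type II neuroblasts, and was lower in mushroom body than in type II neuroblasts (log2 change -1.24 ± 0.30, adjusted p = 0.00922). Antennal lobe library 1 lay within the mushroom body range for pim, and mushroom body over antennal lobe did not pass (adjusted p = 0.106). The exit gene fzy had 311, 282 and 360.5 CPM in mushroom body, 232, 196 and 212 CPM in antennal lobe and 331, 338 and 289.6 CPM in type II neuroblasts, lowest in the antennal lobe (log2 change 0.59 ± 0.15, adjusted p = 0.0112 for mushroom body over antennal lobe, and log2 change -0.58 ± 0.15, adjusted p = 0.0143 for antennal lobe over type II). The citron kinase sti had 313, 320.3 and 348 CPM in mushroom body against 215, 206 and 238 CPM in antennal lobe neuroblasts (log2 change 0.59 ± 0.13, adjusted p = 0.00365).

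**Figure D5:**
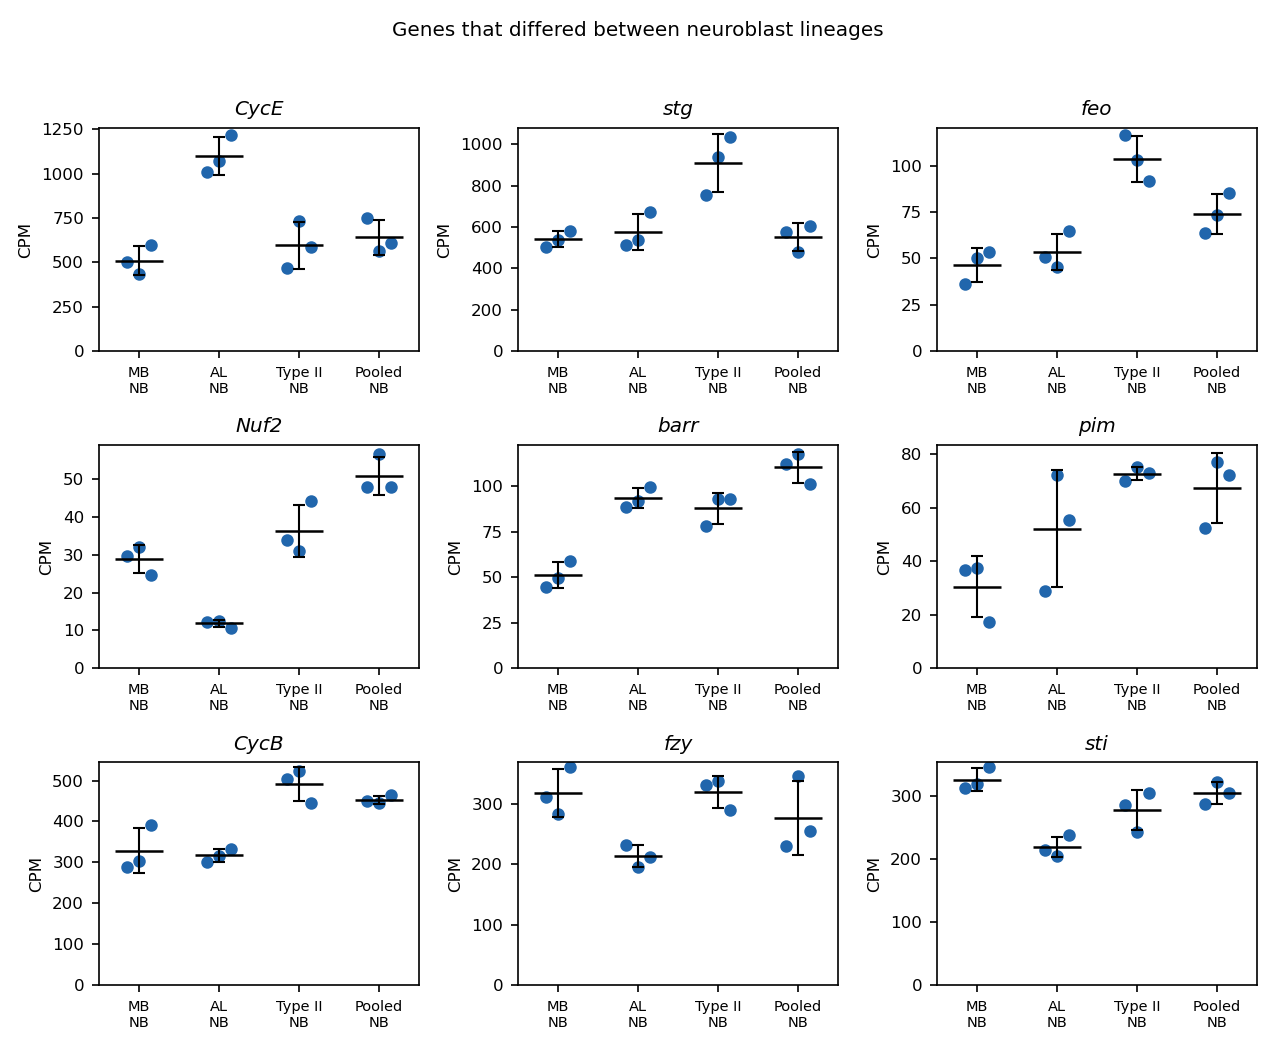
CPM in each library of mushroom body (MB), antennal lobe (AL), type II and pooled neuroblasts (NB) for CycE, stg, feo, Nuf2, barr, pim, CycB, fzy and sti, with the mean (line) and SD (bars, n = 3). Antennal lobe libraries are highest in CycE and lowest in Nuf2, type II libraries are highest in stg and feo, and mushroom body libraries are lowest in barr.

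The 3 lineages were also set against pooled neuroblasts. In mushroom body neuroblasts 0 members were higher and 9 lower, where 8.92% and 5.46% of all genes were. In antennal lobe neuroblasts 1 was higher and 12 lower, where 10.0% and 7.02% of all genes were. In type II neuroblasts 1 was higher and 2 lower, where 3.72% and 2.21% of all genes were. The median log2 changes were -0.27, -0.36 and -0.14, beside -0.01, -0.00 and -0.02 for all genes, and the comparisons share the pooled libraries. Pooled neuroblasts had the highest mean of the 4 groups for 19 members, type II neuroblasts for 9, antennal lobe neuroblasts for 6 and mushroom body neuroblasts for 1. How often each group was highest over all genes was not counted. The 6 neuron markers also differed, with sums of 328 to 422 CPM in mushroom body, 386 to 418 CPM in antennal lobe, 253 to 303 CPM in type II and 137 to 203 CPM in pooled neuroblasts. The 5 progenitor markers (erm, ham, tap, opa and grn) summed to 275 to 376, 41.9 to 62.5, 22.6 to 32.7 and 102 to 161 CPM in these groups. Most of the mushroom body sum was opa, at 238, 208 and 266 CPM. The gene erm went the other way, at 1.13, 0 and 2.75 CPM in mushroom body and 51.0, 21.0 and 34.9 CPM in pooled neuroblasts. Of the rest, tap was higher in mushroom body than in pooled neuroblasts, and ham and grn overlapped. The part of the neuron and progenitor markers in the differences was not tested.

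The members lower in antennal lobe than in pooled neuroblasts were led by Nuf2 (log2 change -2.10 ± 0.27, adjusted p = 1.33e-05). SMC2 had 207, 205 and 220.2 CPM in mushroom body, 146, 165 and 202 CPM in antennal lobe, 238, 158 and 199 CPM in type II and 278, 322 and 321 CPM in pooled neuroblasts, and was lower in all 3 lineages than in the pool (log2 changes -0.51 ± 0.16, -0.83 ± 0.16 and -0.61 ± 0.16). Each lineage library was below each pooled library for SMC2. Under spike-in scaling the type II change of SMC2 was 0.29. Next in antennal lobe over pooled neuroblasts came Klp61F (-0.81 ± 0.19), mad2 (-0.81 ± 0.27), ncd (-0.75 ± 0.24), cal1 (-0.75 ± 0.25), borr (-0.65 ± 0.22) and BubR1 (-0.62 ± 0.16), all in log2 units. Klp3A, CycB, sti and glu had smaller changes, of -0.58, -0.50, -0.47 and -0.44. CycE was the member that was higher (log2 change 0.79 ± 0.15, adjusted p = 0.00104).

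In mushroom body over pooled neuroblasts the largest changes were those of pim (log2 change -1.12 ± 0.30, adjusted p = 0.0147) and barr (log2 change -1.08 ± 0.18, adjusted p = 0.000176). They were followed by borr (-0.81 ± 0.22), Nuf2 (-0.79 ± 0.26), feo (-0.63 ± 0.21), Klp61F (-0.55 ± 0.19), CycB3 (-0.45 ± 0.14) and CycB (-0.43 ± 0.13). The handled mushroom body libraries overlapped the pool in CycB3 (1374 to 1888 CPM against 1148 to 1701 CPM) and in CycB (306 to 506 CPM against 445 to 464 CPM). In pim, barr, borr, Nuf2, feo and Klp61F they lay below every pooled library. In type II over pooled neuroblasts stg was higher (log2 change 0.73 ± 0.14, adjusted p = 0.00126), and CycB3 was lower (log2 change -0.60 ± 0.14, adjusted p = 0.00778) with SMC2. The CycB3 change was 0.14 under spike-in scaling. These counts depended on single libraries and on the scaling. Under spike-in scaling 9 members were lower in mushroom body, 1 in antennal lobe and 0 in type II neuroblasts, where 9.41%, 2.63% and 0.714% of all genes were. In type II neuroblasts 3 members were higher, where 11.2% of all genes were, and the median log2 change of all genes was -0.68, -0.28 and 0.78. In a single fit of all 22 libraries 0, 2 and 0 members were lower and 0 higher. Of all genes, 1.13%, 0.961% and 0.543% were then lower and 3.26%, 2.56% and 0.703% higher. Leaving out 1 library gave 2 to 9 lower members in mushroom body, 3 to 13 in antennal lobe and 1 to 2 in type II neuroblasts over pooled neuroblasts. In mushroom body neuroblasts there were 2 without pooled library 3 or mushroom body library 2, 3 without mushroom body library 1 and 5 without pooled library 1 or 2. In antennal lobe neuroblasts there were 3 without antennal lobe library 1 and 6 without pooled library 2 or 3 or antennal lobe library 2, and 2 members were higher without pooled library 1. In type II neuroblasts there was 1 without pooled library 1 or 3 or type II library 1 or 2. The shares of all genes in these refits are not given here. Over all 6 comparisons of neuroblast groups 15 members never passed, among them CycA, polo, Incenp, thr and cnn. How many of all genes never passed was not counted. CycA had 872, 796 and 738 CPM in mushroom body, 744, 743 and 869.8 CPM in antennal lobe, 882, 733 and 929 CPM in type II and 791, 1022 and 1020.5 CPM in pooled neuroblasts, with overlapping groups.

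Mushroom body neuroblasts handled with a 2 h wait or with 3 washes were compared with those labelled with neither in an edgeR fit of 8766 genes. After the wait 0 members were higher and 0 lower by edgeR, where 0% and 0.0228% of all genes were. At an unadjusted p below 0.05, 3 members differed, as did 727 of the 8766 genes, and DESeq2 gave 1 higher member. Leaving out the washed library 1, which shares the fit, also gave 1 higher. The smallest p was that of CycB3, which had 1691, 1438 and 1438 CPM after the wait against 1036, 1059 and 1042 CPM in mushroom body neuroblasts (log2 change 0.53 ± 0.12, adjusted p = 0.106). After 3 washes 2 members were higher and 0 lower, where 0.160% and 0.673% of all genes were. CycB3 had 1374, 1888 and 1634 CPM after 3 washes, against the same 3 mushroom body libraries (log2 change 0.61 ± 0.12, adjusted p = 0.0138). CycE had 740.0, 887 and 774 CPM after 3 washes against 501, 432 and 597 CPM in mushroom body neuroblasts (log2 change 0.62 ± 0.14, adjusted p = 0.0270), and 731, 727 and 573 CPM after the wait (log2 change 0.40 ± 0.14, adjusted p = 0.397). The 3 mushroom body libraries labelled with neither were below all handled libraries in CycB3. Both comparisons use those same 3 libraries. The 2 calls after the washes became 0 without the washed library 2 or 3 or mushroom body library 2, and 1 without mushroom body library 1 or 3.

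The other members did not pass after either handling, and the median log2 change of the 35 was 0.01 after the wait and 0.06 after 3 washes, beside 0.01 and 0.01 for all genes. SMC2 had 168, 126 and 123 CPM after the wait against 207, 205 and 220.2 CPM in mushroom body neuroblasts (log2 change -0.61 ± 0.17, adjusted p = 0.252), with no overlap between the groups. Under spike-in scaling the median of all genes after 3 washes was 0.77 and 21 members were higher, where 24.3% of all genes were.

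A further 128 genes of the same processes were found from 8 lists, and 122 were tested. Of these, 57 were higher and 1 lower in pooled neuroblasts than in neurons, 20 higher and 4 lower in pooled neuroblasts than in glia, and 0 higher and 33 lower in neurons than in glia. The shares of all tested genes were 10.2% higher and 14.5% lower in the first comparison, 7.0% and 13.6% in the second and 9.37% and 10.8% in the third. The median log2 changes of the 122 were 2.27, 0.74 and -1.29. Counts of the smaller lists over glia, such as 1 or 2 genes, lie near those shares. Of 22 cyclins, CDKs and their regulators, 8 were higher and 1 lower over neurons, 7 were higher over glia, and 2 were lower in neurons than in glia. The replication licensing gene dup (5.84 ± 0.75), the CDK subunit gene Cks30A (5.38 ± 1.01) and cdc2, the mitotic CDK (4.81 ± 1.36), led over neurons. CycG was the gene lower in pooled neuroblasts than in neurons (log2 change -0.98 ± 0.31, adjusted p = 0.0479). Of 10 tested genes of the anaphase-promoting complex and its partners and regulators, 2 were higher over neurons, 1 over glia and 0 differed between neurons and glia. These were shtd (3.22 ± 0.94 over neurons and 3.04 ± 0.92 over glia) and mr (2.64 ± 0.74 over neurons).

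Of 13 further kinetochore and checkpoint genes, 9 were higher over neurons, 5 over glia, and 6 were lower in neurons than in glia. The kinetochore scaffold Spc105R had log2 changes of 7.08 ± 0.91 over neurons and 2.49 ± 0.70 over glia, and the kinesin cmet one of 7.16 ± 1.19 over neurons. Of 8 genes listed for the passenger complex and mitotic kinases, with phosphatase genes such as tws and mts among them, 5, 1 and 3 passed in the same comparisons. The Aurora B gene ial was higher over neurons with an adjusted p of 0.0164, by counts 161-fold (95% interval 55.0 to 783), and over glia (log2 change 5.39 ± 1.48, adjusted p = 0.0344). The Greatwall kinase gene gwl had 1 count in neurons. It was 502-fold (95% interval 89.9 to 19832) higher in pooled neuroblasts by counts, with an adjusted p of 0.0178. Of 15 condensin, cohesin and separase genes, 4 were higher over neurons, 1 over glia and 3 lower in neurons than in glia, with the condensin gene CAP-D2 first over neurons (log2 change 7.39 ± 1.67, adjusted p = 0.0128).

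Of 17 centrosome genes, 10 were higher over neurons, 0 over glia, with 1 lower, and 5 were lower in neurons than in glia. The centriole gene asl changed by 5.52 ± 0.91 over neurons, and the pericentriolar gene cp309 was lower in pooled neuroblasts than in glia (log2 change -1.08 ± 0.32, adjusted p = 0.0432). Of 21 spindle motor and microtubule genes, 14 were higher over neurons. Over glia 3 were higher, among them asp (log2 change 3.32 ± 0.46, adjusted p = 0.00169), and 1 was lower, the augmin subunit dgt4 (log2 change -3.05 ± 0.51, adjusted p = 0.00414). In neurons 7 were lower than in glia. Of 16 cytokinesis genes, 5 were higher over neurons, 2 were higher and 2 lower over glia, and 7 were lower in neurons than in glia. The cytokinesis gene pbl had a mean of 181 CPM in pooled neuroblasts, 1.30 CPM in neurons and 184 CPM in glia. It was higher in pooled neuroblasts than in neurons (log2 change 7.02 ± 0.57, adjusted p = 6.35e-05) and did not pass over glia (log2 change -0.05 ± 0.39, adjusted p = 0.942). The recycling endosome genes nuf (log2 change -3.59 ± 0.54, adjusted p = 0.00254) and Rab11 (log2 change -1.49 ± 0.30, adjusted p = 0.00973) were lower in pooled neuroblasts than in glia. Between lineages, 9 genes of the 8 lists were higher and 8 lower in mushroom body over antennal lobe neuroblasts. In mushroom body over type II neuroblasts 5 were higher and 5 lower, and in antennal lobe over type II neuroblasts 8 were higher and 7 lower. These counts of 122 lie close to the shares of all genes given above for the same comparisons, which were 4.72% to 6.08%.

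Some members share positions with other genes. By the deposited dm3 start and end positions, which do not mark exons, 10 of the 35 members overlap a gene on the opposite strand. The other 25 overlap none. The labels do not state whether counting used the strand, and counts marked ambiguous (1.03 to 1.76%) were left out. Spc25 lies wholly within granny-smith, and CycA shares 1815 of its 5383 bases with CG7264. CG7264 averaged 0.870 TPM in pooled neuroblasts and granny-smith was listed at 0. The other overlaps were those of Bub3, ncd, Klp61F, cal1, glu, mad2, thr and Nuf2, over 8 to 458 bases. Some of these neighbours had high levels. CG7789, over 99 bases of ncd, stood at 19.0 TPM in pooled neuroblasts, 19.9 TPM in neurons and 268 TPM in glia, and ppk19, over 91 bases of Bub3, at 10.3, 1.19 and 61.3 TPM in the same groups. CG5537, over 94 bases of mad2, stood at 95.1, 182 and 4.37 TPM, and CG13779, over 37 bases of Nuf2, at 189, 34.8 and 46.3 TPM. Their part in the counts of the members was not tested. Of the 35 genes 8 lie on chromosome 2L, 11 on 2R, 6 on 3L, 6 on 3R and 4 on X.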

How the data were processed

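RNA of each pool of GFP-labelled cells was extracted, amplified and sequenced, per the labels' protocols. The authors deposited gene counts and length-scaled abundances (TPM). CASAVA, cutadapt 1.7.1, Bowtie2 2.1.0, STAR 2.4.0i, HTSeq 0.6.1p1 and the builds mm10 and dm3 are named in the submitters' processing notes. The use of mm10 and the strand setting of the counting are not stated there. The entries that name no gene held 7.92 to 23.8% (no feature) and 1.03 to 1.76% (ambiguous) of counts and were left out, and ERCC spike-ins were kept for scaling alone.

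Counts were tested with edgeR 4.0.16 (quasi-likelihood, TMM, filterByExpr, R 4.3.3), with Benjamini-Hochberg adjustment over all genes tested, in 3 fits. These covered pooled neuroblasts, neurons and glia, the 4 neuroblast groups, and the 3 mushroom body groups. In data simulated with a log2 change of 4 in 200 genes, 72.5% were recovered for pooled neuroblasts over neurons (9504 genes), 99.5% for mushroom body over antennal lobe (8893 genes) and 100.0% for the 2 h wait over mushroom body neuroblasts (8529 genes). The changed genes were drawn from those with higher mean levels. The largest member changes in the last 2 comparisons were 1.30 and -0.61 in log2 units, and recovery at changes of that size was not simulated. Of the genes called in these simulations 7.05%, 2.93% and 3.85% were unchanged ones, so the share of false calls for pooled neuroblasts over neurons was above the 5% that the threshold aims at. For genes with a group total of 0 to 3 counts a floor of 3 counts or a ratio of counts with its exact 95% interval replaces the fitted change. Named genes were the 8 called members with the largest changes per direction, every uncalled member between cell types, every called member between lineages and handlings, and up to 3 called genes per further list. The members and lists were chosen with earlier results of these data known. The labels do not say whether replicates were separate dissections, so p-values measure the spread between these samples, which may be technical.

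Alternatives were RLE scaling, no filter on low counts, DESeq2 1.42.0, limma 3.58.1 on log2(TPM + 1), ERCC scaling per cell, 1 fit of all libraries, a replicate block, leaving out CR41602 and CR40677 (10.1 to 31.9% of counts), and leaving out each library.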

Additional observations from a re-analysis of the deposited data

How the results depend on the processing

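RLE scaling and leaving out CR41602 and CR40677 kept every count of called members within 1.5 times, except that RLE scaling gave 4 lower members in mushroom body over pooled neuroblasts. Without a filter, and with DESeq2, 1 member was higher in mushroom body over type II neuroblasts and 1 after the 2 h wait. With limma on TPM, 19 members were higher in pooled neuroblasts over glia and 0 after 3 washes. Under ERCC scaling per cell, pooled neuroblasts over glia had 34 higher members, and neurons over glia 4 higher and 7 lower. Mushroom body over antennal lobe had 0 higher and 1 lower, mushroom body over type II 33 lower, antennal lobe over type II 0 higher and 25 lower, antennal lobe over pooled 0 higher and 1 lower, type II over pooled 3 higher and 0 lower, and 3 washes over mushroom body 21 higher. It turned the sign of CycB3 (-0.52 in antennal lobe over type II, 0.14 in type II over pooled), CycE (-0.092 in antennal lobe over type II), SMC2 (0.29 in type II over pooled) and Klp10A (0.40 in neurons over glia). In 1 fit of all libraries, pooled neuroblasts over glia had 27 higher and 2 lower, neurons over glia 2 higher and 24 lower, and antennal lobe over pooled 0 higher and 2 lower. In the other comparisons between neuroblast groups and after 3 washes that fit left 0 members. The cause was not tested.

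Leaving out 1 library gave 21 to 29 higher and 0 to 1 lower members in pooled neuroblasts over neurons, 7 to 18 and 0 to 1 over glia, and 0 to 1 and 9 to 20 in neurons over glia. It gave 2 to 5 and 2 to 3 in mushroom body over antennal lobe, 0 to 1 and 5 to 5 over type II, and 2 to 3 and 4 to 6 in antennal lobe over type II. Over pooled neuroblasts it gave 2 to 9 lower in mushroom body, 1 to 2 higher and 3 to 13 lower in antennal lobe, and 1 to 1 higher and 1 to 2 lower in type II. After the wait it gave 0 to 1 higher and after 3 washes 0 to 2. The shares of all genes in these refits are not given here.

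Same-numbered libraries did not deviate together (correlations of -0.0258 to -0.000489, -0.0683 to 0.113 and -0.0737 to 0.0656 in the 3 fits), so the numbers were not taken as pairs. With a replicate block 22 members were higher in pooled neuroblasts over neurons, 8 over glia, 9 lower in neurons over glia, 8 lower in mushroom body over pooled and 1 higher after 3 washes. In the same order and directions, 502, 203, 596, 483 and 8 of all tested genes were called. In neurons 10 and 15 members had 3 counts or fewer in libraries 1 and 2.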
